A study of Mus musculus with 6 samples.

Results

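Small leucine-rich proteoglycans are secreted matrix proteins built of leucine-rich repeats, and the 10 mouse genes described here are Aspn, Omd, Ogn and Ecm2 on chromosome 13, Dcn, Lum and Kera on chromosome 10, Fmod and Prelp on chromosome 1, and Bgn on chromosome X. They were taken by gene symbol from the deposited count table, where each matched 1 of 58116 rows. The list was chosen by family, with the log2 changes of the same BMP-2 comparison already known. The difference between BMP-2 and control libraries is therefore given for these genes as a description, and no test of it is read. The tissue was the salivary gland primordium of wild-type mice at embryonic day 13.5. Control samples had 0 ng/ml and treated samples 300 ng/ml of BMP-2, which is a secreted signal of the bone morphogenetic protein family. Each group had 3 poly(A) RNA sequencing libraries of between 19724383 and 32473558 counts. Neither the length of the treatment nor the number of glands or litters behind a library is given in the labels, so the spread between libraries may be partly technical.

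In these proteins the repeats form a curved solenoid that binds collagen and growth factors, and many carry chains of chondroitin, dermatan or keratan sulfate. Decorin (Dcn), lumican (Lum) and fibromodulin (Fmod) are known for controlling the width and spacing of collagen fibrils, biglycan (Bgn) for roles in bone and in binding growth factors, and asporin (Aspn) for binding collagen and members of the TGF-beta family. Osteoglycin (Ogn), also called mimecan, and osteomodulin (Omd) were first found in bone, keratocan (Kera) is best known from the cornea, Prelp encodes a protein that anchors matrix to heparan sulfate, and Ecm2 encodes a related protein with leucine-rich repeats. In the early salivary gland the connective tissue around the branching epithelium is the main place where fibrillar matrix is made.

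The promoters of the chromosome 13 cluster are shown because 3 of its 4 genes differed together between the groups while the groups overlapped for the fourth. The table of RefSeq promoters (build GRCm38.p6) held 8 of the 10 genes and lacked Dcn and Lum. Each sequence runs 5′ to 3′ on the plus strand of chromosome 13, from 250 bases before the gene start to 50 bases after it. Capitals mark the SMAD-binding letters GTCT, which appear as AGAC when they lie on the other strand. They also mark the TATA letters TATAAA, which appear as TTTATA when they lie on the other strand. The intervals are chr13:49544193-49544492 for Aspn, chr13:49607765-49608064 for Ogn, chr13:49582212-49582511 for Omd and chr13:49504560-49504859 for Ecm2.
Aspn: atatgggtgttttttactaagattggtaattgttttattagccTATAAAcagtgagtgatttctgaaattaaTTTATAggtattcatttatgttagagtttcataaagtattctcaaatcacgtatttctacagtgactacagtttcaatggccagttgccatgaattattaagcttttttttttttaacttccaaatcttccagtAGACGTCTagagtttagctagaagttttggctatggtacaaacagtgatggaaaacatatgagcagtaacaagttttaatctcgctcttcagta
Ogn: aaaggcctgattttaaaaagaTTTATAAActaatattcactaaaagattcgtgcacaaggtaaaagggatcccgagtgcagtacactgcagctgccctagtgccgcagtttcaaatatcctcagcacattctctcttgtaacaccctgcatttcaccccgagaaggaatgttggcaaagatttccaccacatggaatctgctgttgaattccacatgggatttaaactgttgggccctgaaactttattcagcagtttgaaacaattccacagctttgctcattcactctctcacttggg
Omd: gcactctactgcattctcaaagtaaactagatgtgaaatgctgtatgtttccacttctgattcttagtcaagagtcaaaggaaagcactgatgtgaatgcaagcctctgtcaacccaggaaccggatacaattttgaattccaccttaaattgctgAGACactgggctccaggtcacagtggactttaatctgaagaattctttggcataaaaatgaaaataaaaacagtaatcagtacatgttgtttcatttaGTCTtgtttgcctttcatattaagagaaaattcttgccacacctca
Ecm2: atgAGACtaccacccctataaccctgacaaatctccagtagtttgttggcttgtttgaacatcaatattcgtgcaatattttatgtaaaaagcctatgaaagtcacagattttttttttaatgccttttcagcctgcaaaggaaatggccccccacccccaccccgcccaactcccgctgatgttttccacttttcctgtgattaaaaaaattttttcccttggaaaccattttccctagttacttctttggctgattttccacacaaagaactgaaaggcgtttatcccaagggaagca

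The letters GTCT occurred 2 times in the Aspn window, side by side on opposite strands, 2 times in Omd, 1 time in Ecm2 and 0 times in Ogn. They are common: on either strand they stood in 87.98% of 32851 promoters of this length, with a median of 2 matches. TATAAA stood 2 times each in the Aspn and Ogn windows and in neither Omd nor Ecm2, against 13.62% of all promoters. The 2 matches in Ogn overlap each other on opposite strands, and all lie far upstream, at offsets from -229 to -178 from the start. The E-box letters CANNTG, which read the same on both strands and overlapped none of the other motifs here, occurred 4 times in Ogn, 2 times in Aspn and 0 times in Omd and Ecm2, against 72.31% of all promoters with at least 1. The GC-rich SMAD letters GGCGCC (11.87% of promoters) and the homeobox letters TAATTA (5.291%) occurred in none of the 8 windows. The windows of Aspn, Omd, Ecm2 and Ogn were 31, 37.7, 41 and 42.3% G and C, below the median of 52.7% over all promoters.

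Before the members are compared, the libraries themselves differed in skeletal muscle transcripts. The summed level of 14 muscle markers was 10.7, 5.86 and 101 CPM (counts scaled to a common library size with TMM factors) in control replicates 1, 2 and 3. For BMP-2 replicate 1 it was 828, for BMP-2 replicate 2 it was 196 and for the other treated library 853 CPM. That library carries no replicate number, because its column name matched no sample label and its group was read from the first letter of the name alone; it is called the unnumbered library below. Of the 14 markers 6 were at 0 counts in control replicate 1, 2 in control replicate 2 and 0 in the other 4 libraries. Epithelial genes of the labelled tissue were present in all 6 libraries, with summed levels of 3679 to 5467 CPM for 9 general epithelial markers and 1350 to 4853 CPM for 7 salivary epithelial markers.

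Without BMP-2 the family was led by 3 genes. Per kilobase of gene model, Lum was at 98.2 ± 20.7 CPM per kb, Bgn at 89.3 ± 5.87 and Dcn at 61.5 ± 6.73 CPM per kb (SD, n = 3 each). Lum and Bgn overlapped, whereas all Bgn values lay above all Dcn values. Prelp followed at 17.2 ± 3.36 CPM per kb, apart from the genes above and below it. Kera at 9.38 ± 2.81, Aspn at 7.90 ± 0.675 and Fmod at 6.50 ± 3.08 CPM per kb overlapped one with the next. Ogn was at 3.65 ± 0.868 CPM per kb, and Ecm2 and Omd came last with 0.654 ± 0.162 and 0.652 ± 0.259 CPM per kb, not separable by their spread. Bgn, Dcn and Lum together made up between 83.0 and 85.4% of the summed level per kb of the 10 genes in a control library, and the 4 genes of the chromosome 13 cluster between 4.14 and 4.65%.

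The control libraries were not alike for this family. All 10 genes were highest in control replicate 1, the control with 10.7 CPM of muscle markers, and 8 of the 10 were lowest in control replicate 2. Of all 17006 genes tested, 41.4% were highest in control replicate 1 and 31.6% lowest in control replicate 2. Scaled by library totals alone, 8 of the 10 were highest in control replicate 1, against 31.2% of tested genes. As a ratio the gap was widest for Fmod, with 33.5 CPM in control replicate 1 against 15.2 and 16.3 CPM in replicates 2 and 3. The mean of 17 tested fibroblast markers did not show this order, at -0.05, -0.03 and 0.08 on the log2 scale relative to the control mean in control replicates 1, 2 and 3.

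**Figure D1:**
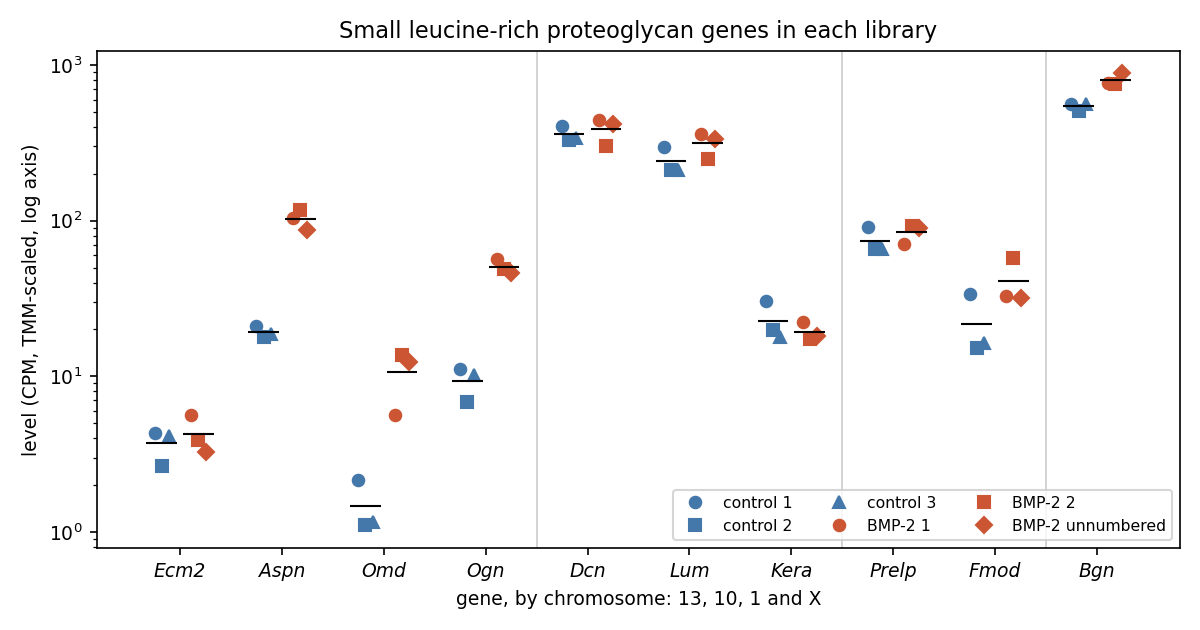
Level of each gene (CPM, log axis) in the 3 control libraries (blue) and the 3 BMP-2 libraries (red), with the group mean as a black line. The groups stand apart for Aspn, Omd, Ogn and Bgn and overlap for the other 6 genes.

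With BMP-2, 3 neighbouring genes of the chromosome 13 cluster were higher. Aspn had 21.1, 17.9 and 18.7 CPM in control replicates 1, 2 and 3. The treated libraries, in the order BMP-2 replicate 1, BMP-2 replicate 2 and unnumbered, had 104, 118 and 86.7 CPM. The lowest treated library lay far above the highest control. The means were 19.2 ± 1.64 and 103 ± 15.6 CPM (SD, n = 3 each), a 5.36-fold difference and a log2 change of 2.42 (SE 0.14). Among the 17006 tested genes, ordered by level per kb, Aspn stood at place 5860 without and place 1111 with BMP-2.

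Ogn was at about the same multiple. It had 11.1, 6.86 and 10.2 CPM in the controls and 56.4, 48.7 and 46.2 CPM with BMP-2, in the order just used, a 5.38-fold difference of means (log2 change 2.43, SE 0.189). Again the groups did not overlap. The level of Aspn relative to Ogn within a library, both per kb, was 2.001, 2.75 and 1.94 in the controls and 1.95, 2.55 and 1.98 with BMP-2, so the ratio overlapped between the groups while both levels differed.

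Omd, the least abundant of the 3, had 2.14, 1.10 and 1.16 CPM in the controls and 5.60, 13.8 and 12.3 CPM with BMP-2. The groups did not overlap, but BMP-2 replicate 1 was well below the other treated libraries. The fold of means was 7.21 and the log2 change 2.85 (SE 0.419). Its counts were small, from 22 to 43 in a control library and from 180 to 335 in a treated one. Bone marker genes showed the same low treated library: on the log2 scale relative to the control mean, BMP-2 replicate 1 had a mean of 1.17, against 2.33 for BMP-2 replicate 2 and 2.30 for the unnumbered library. Cartilage, tendon and leukocyte markers were likewise lowest of the treated libraries in BMP-2 replicate 1, at means of 1.05, 0.22 and 0.10. Fibroblast, muscle, adipocyte and endothelial markers were instead lowest in BMP-2 replicate 2. Whether any of these cell types takes part in the Omd values was not tested.

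Ecm2, the fourth gene of the cluster and 11653 bases upstream of Aspn, had 4.33, 2.65 and 4.15 CPM in the controls and 5.63, 3.87 and 3.27 CPM with BMP-2. The groups overlapped, and the log2 change was 0.20 (SE 0.301). Within a library Ogn was 5.42 to 5.72 times as high as Ecm2 per kb in the controls and 22.2 to 31.3 times as high with BMP-2. In bulk tissue, more cells of a type that expresses a gene and more RNA per cell cannot be told apart, for these genes and for all that follow.

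Of the 10 genes, all of which passed the expression filter, 4 had every BMP-2 library above every control (Aspn, Omd, Ogn and Bgn), and 8.76% of all tested genes did so. Under edgeR's quasi-likelihood test across all genes (adjusted p below 0.05), 3 of the 10 were called higher (Aspn, Omd and Ogn) and 0 lower, and the shares over all tested genes were 0.811% and 0.1%. Nothing is read from either count, since the genes were picked with this contrast known. The median log2 change of the 10 was 0.48 and that of all tested genes -0.01. Omd was past the edgeR threshold with all libraries and without BMP-2 replicate 1, but not without control replicate 1, 2 or 3, BMP-2 replicate 2 or the unnumbered library. Limma-voom on all 6 libraries called 2 of the 10, Aspn and Ogn, and not Omd.

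Bgn was the fourth gene without overlap, and its difference was smaller. It had 567, 504 and 565 CPM in the controls and 766, 760 and 886 CPM with BMP-2, a 1.48-fold difference (log2 change 0.56, SE 0.118). It was not past the edgeR threshold and was past that of DESeq2. Relative to Dcn, per kb, Bgn was at 1.34, 1.45 and 1.58 in the controls and at 1.65, 2.40 and 2.04 with BMP-2, higher in each treated library.

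The chromosome 10 genes differed little, and each overlapped between the groups. Dcn was at 404, 332 and 342 CPM in the controls and 444, 303 and 416 CPM with BMP-2 (log2 change 0.11, SE 0.16). The lowest of all 6 values was that of BMP-2 replicate 2. Lum was at 299, 212 and 210 CPM in the controls and 362, 250 and 335 CPM with BMP-2 (log2 change 0.39, SE 0.185), with only control replicate 1 inside the treated range. The ratio of Dcn to Lum per kb was 0.567, 0.656 and 0.681 in the controls and 0.515, 0.508 and 0.521 with BMP-2, lower in each treated library. Kera had 30.5, 19.8 and 17.8 CPM in the controls and 22.3, 17.3 and 18.1 CPM with BMP-2, and was the 1 gene of the 10 with a negative log2 change, -0.24 (SE 0.215). Without control replicate 1, its highest library, its log2 change was 0.03, so the direction rests on that library.

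On chromosome 1, Fmod had 33.5, 15.2 and 16.3 CPM in the controls and 32.6, 57.8 and 31.8 CPM with BMP-2 (log2 change 0.91, SE 0.375). Control replicate 1 reached the level of the lower treated libraries, and BMP-2 replicate 2 stood above the rest. Leaving out 1 library, the log2 change of Fmod ranged from 0.57 without BMP-2 replicate 2 to 1.37 without control replicate 1. The mean of 4 tendon markers (Scx, Mkx, Tnmd and Thbs4) was also highest in BMP-2 replicate 2, at 1.05 on the log2 scale, and lowest in control replicate 1, at -0.58. Among them Thbs4 was at 2.87 and Tnmd at -0.09 in BMP-2 replicate 2, relative to their control means. The mean of 5 leukocyte markers had its highest and lowest value in the same libraries, at 0.96 and -0.74. Bone, cartilage, smooth muscle or pericyte and epithelial means were highest in BMP-2 replicate 2 too, at 2.33, 1.58, 0.62 and 0.12. Of the controls, replicate 1 had the lowest bone mean (-0.31). Like Fmod, the cartilage (0.08), smooth muscle or pericyte (0.10) and epithelial (0.10) means were highest of the controls there. The part of any of these cell types in the Fmod values was not tested. Prelp had 90.9, 65.6 and 65.9 CPM in the controls and 70.9, 91.9 and 89.3 CPM with BMP-2 (log2 change 0.18, SE 0.16), overlapping between the groups.

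**Figure D2:**
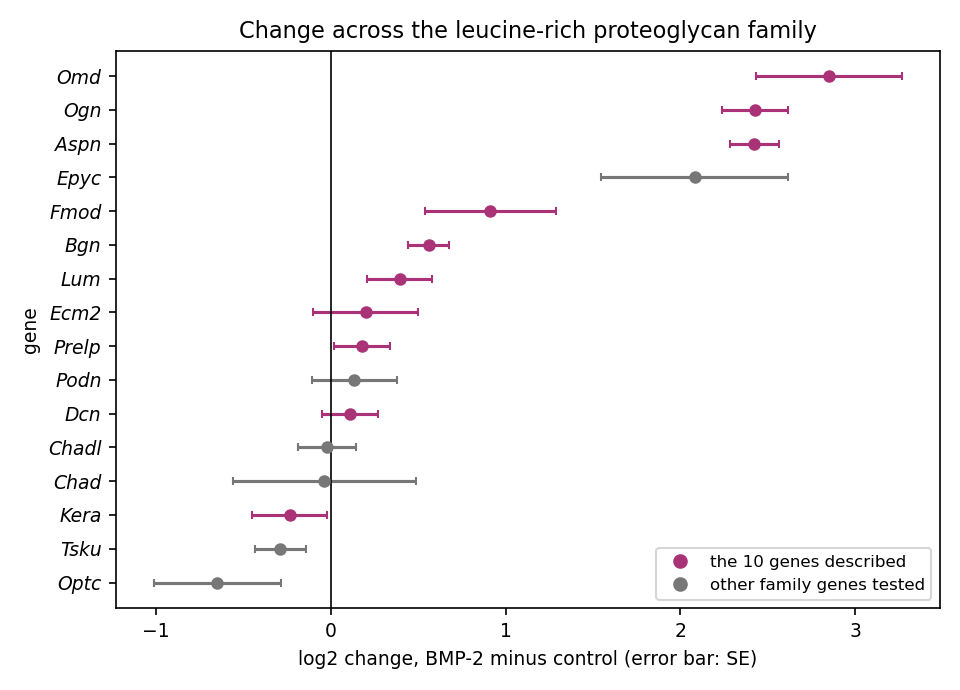
Log2 change between BMP-2 and control libraries (error bars: SE of the edgeR fit over all genes) for the 10 genes (purple) and for the 6 other family genes that could be tested (grey). Omd, Ogn and Aspn lie between 2.42 and 2.85, and Epyc at 2.08 has the widest error bar of the genes shown.

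The makeup of the family differed as well. With BMP-2 the chromosome 13 cluster made up 15.1, 18.6 and 13.3% of the summed level per kb, in the same library order, all above the 4.65% that was the highest control value. Aspn alone made up 2.69 ± 0.144% without and 9.84 ± 2.14% with BMP-2 (SD, 3 libraries each). The share of Dcn was 20.9 ± 0.638% without and 15.2 ± 1.95% with BMP-2, and that of Bgn 30.5 ± 3.17% and 30.4 ± 2.38%. Shares in a library sum to 100%, so a share can be lower without a lower level. The level of Dcn itself was 61.5 ± 6.73 CPM per kb without and 66.4 ± 12.8 CPM per kb with BMP-2. The order of the levels per kb with BMP-2 was Bgn and Lum (overlapping), Dcn, Aspn, Ogn and Prelp (overlapping), Fmod, Kera, Omd and Ecm2. Prelp and Fmod also overlapped, at 16.4 to 21.3 and 9.54 to 17.3 CPM per kb. The lowest Aspn value, 35.6 CPM per kb, lay below the lowest of Dcn, 52.0 CPM per kb.

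**Figure D3:**
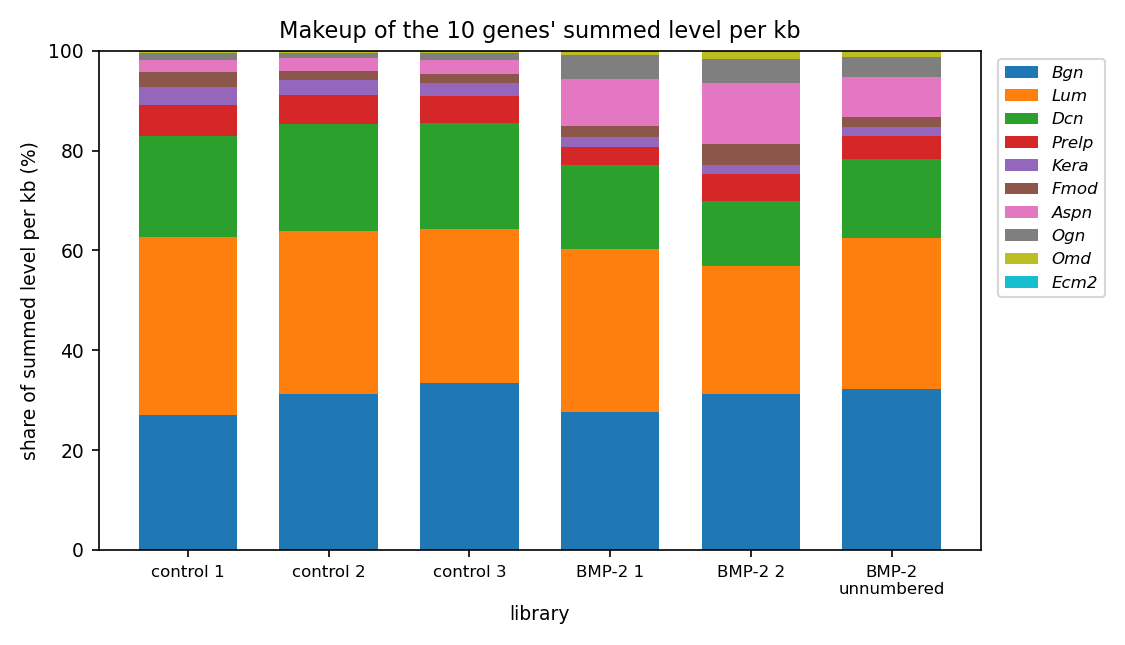
Share of each gene in the summed level per kb of the 10 genes, by library, as stacked bars to 100%. Aspn (pink) takes 7.91 to 12.1% in the BMP-2 libraries and at most 2.78% in the controls; Ecm2, the last segment, is at most 0.264% and hardly visible.

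The genes around the chromosome 13 cluster were then examined. Ecm2, Aspn, Omd and Ogn lie in this order on the plus strand (GRCm39, positions 49658286 to 49777977 from the start of Ecm2 to the end of Ogn), with gaps of 11653, 14896 and 15223 bases. None of the 11 other tested genes within 500 kb was called by edgeR in either direction, and 0 of the 11 had an unadjusted p below 0.05; DESeq2 and limma-voom also called 0. Their log2 changes ran from -0.65 for Susd3 to 0.28 for Cenpp, and their median was -0.04. Cenpp, a centromere protein gene on the minus strand, spans all 4 cluster genes, and had 94 to 215 counts in a library (adjusted p = 0.877, edgeR). If strand was not used in counting, reads from any exon bases that Cenpp shares with the cluster genes on the other strand cannot be told apart. Whether exons overlap was not examined, so the counts that follow do not measure such mixing. Cenpp counts were below every Aspn and Ogn count with BMP-2 (1089 or more). They were above every Omd count in the controls (22 to 43) and overlapped those of Omd with BMP-2 (180 to 335) and those of Ecm2 (53 to 181). Tes3-ps, a pseudogene 8221 bases from Ecm2, had a log2 change of -0.15 (SE 0.222; adjusted p = 0.956, edgeR).

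**Figure D4:**
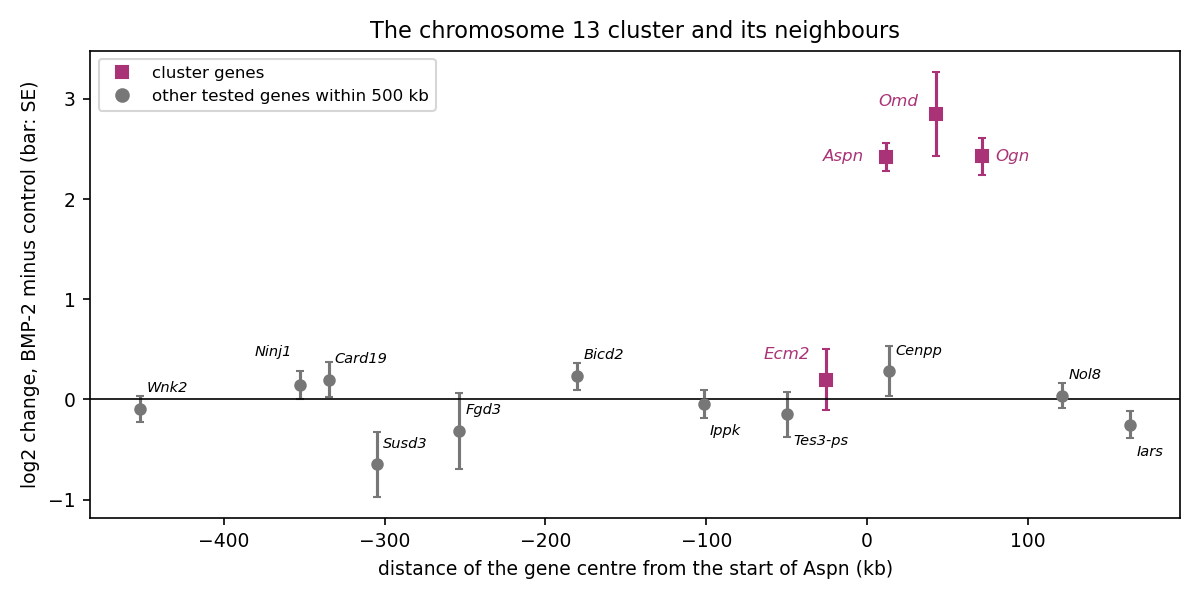
Log2 change (with SE) against distance from the start of Aspn for the 4 cluster genes (purple squares) and the 11 other tested genes within 500 kb (grey). Aspn, Omd and Ogn lie at 2.42 or above and all other genes between -0.65 and 0.28.

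Around all 4 locations together, 56 other genes within 500 kb were tested and 1 was called (0.911% of all tested genes were called in either direction). At an unadjusted p below 0.05 in edgeR, 8 of the 56 were higher and 2 lower. Of all 17006 tested genes, 1100 were higher and 621 lower at that p. DESeq2 called 6 of the 56, against 672 of all 17006 tested genes, and limma-voom called 0. The gene called by edgeR was Adora1, an adenosine receptor gene 150946 bases from Fmod, which was higher with BMP-2. Control libraries averaged 1.31 ± 0.0702 CPM and treated libraries 5.91 ± 2.35 CPM (SD, 3 libraries each), and by edgeR the log2 change was 2.16 with an SE of 0.36 and an adjusted p = 0.042. This call remained without BMP-2 replicate 1 and was lost when any of the other 5 libraries was left out. On chromosome 10 the single testable neighbour was Epyc, which encodes epiphycan, a family member of growth plate cartilage, 30375 bases beyond Kera.

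Other members of the family did not pass the test. Of 8 such genes (Epyc, Optc, Chad, Chadl, Nyx, Tsku, Podn and Podnl1), 6 had enough counts, edgeR called 0, limma-voom called 0 and DESeq2 called 1, Epyc, which was also the 1 gene with an unadjusted p below 0.05. Epyc had 15, 10 and 6 counts in the controls and 50, 79 and 32 with BMP-2, in the order used above. All treated values were higher, but the level was low, 0.491 ± 0.261 against 2.05 ± 1.04 CPM (SD, 3 libraries each). By edgeR its log2 change was 2.08 with an SE of 0.536 and an adjusted p = 0.139. Chadl, a chondroadherin-like gene, was at 21.8 ± 3.73 and 21.5 ± 2.88 CPM, and Tsku, which encodes the secreted protein tsukushi, at 21.2 ± 2.98 and 17.4 ± 1.33 CPM (SD, 3 libraries each). Podn had a log2 change of 0.13 (SE 0.244), Chad of -0.04 (SE 0.524) and Optc, the opticin gene next to Prelp, of -0.65 (SE 0.365). Nyx had at most 6 counts in a library and Podnl1 at most 15, and neither was tested. The median log2 change of the 6 was -0.03.

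Genes that make the sugar chains were also examined. Of 28 genes for glycosaminoglycan synthesis 26 were tested, 1 was called higher and 0 lower, with a median log2 change of 0.12. The shares called over all tested genes were 0.811% higher and 0.1% lower. The called gene was B3gnt7, a keratan sulfate chain enzyme, which had 9, 10 and 15 counts in the controls and 55, 46 and 54 in the treated libraries. By edgeR its log2 change was 1.95 with an SE of 0.33 and an adjusted p = 0.042. Its level was low, and the call was lost when any 1 library was left out and in limma-voom (adjusted p = 0.0568).

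Among the core proteins of other proteoglycans, 1 of 22 tested genes was called (0.911% of all tested genes were called in either direction). This was Acan, the large cartilage proteoglycan (log2 change 5.38, SE 0.573, edgeR adjusted p = 0.009996), with 13 counts in the controls together and 650 with BMP-2. Its call was lost without control replicate 2. The median over the 22 was 0.26, and 6 were higher and 2 lower at an unadjusted p below 0.05 in edgeR. Of all 17006 tested genes, 1100 were higher and 621 lower at that p.

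Collagens, to which most of these proteoglycans bind, gave 1 called gene of 16 (0.911% of all tested genes were called in either direction). It was Col2a1 of cartilage (log2 change 4.44, SE 0.508, edgeR adjusted p = 0.017). Its call was lost without control replicate 1 or 2. At an unadjusted p below 0.05 in edgeR, 4 collagen genes were higher and 1 lower, against 1100 and 621 of all 17006 tested genes. DESeq2 called 4 higher, Col2a1, Col11a1, Col11a2 and Col24a1, against 672 of all tested genes in either direction. The collagen genes with the most counts were not called: Col3a1 averaged 2614 ± 102 CPM in controls and 2424 ± 557 CPM in treated libraries (SD, 3 libraries each), and Col1a2 had a log2 change of -0.15 (SE 0.211). Of 10 genes for signalling partners that small leucine-rich proteoglycans are known to bind, edgeR called 0, limma-voom 0 and DESeq2 1, with 2 at an unadjusted p below 0.05 in edgeR; Igf1r and Egfr, those with the most counts, had log2 changes of 0.14 and 0.01. The gene called by DESeq2 was Tgfb3, a TGF-beta ligand gene, at 32.2 ± 3.37 CPM in controls and 50.5 ± 7.38 CPM in treated libraries (SD, 3 libraries each), without overlap. By edgeR its log2 change was 0.65 with an SE of 0.137 and an adjusted p = 0.0775. Tgfb1, the other gene with an unadjusted p below 0.05 in edgeR, had a log2 change of 0.46 (SE 0.178). EdgeR, DESeq2 and limma-voom called 0 of the 4 tendon markers, with 0 at an unadjusted p below 0.05 in edgeR, and Thbs4 and Scx, those with the most counts, had log2 changes of 1.77 (SE 0.75) and 0.13 (SE 0.345).

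Some markers of other cell types also differed between the groups. The median log2 change of the 13 tested muscle markers was 4.23 and the lowest 2.10. Of them 1, Pax7, was called, a call kept without BMP-2 replicate 2 and lost when any other library was left out. At an unadjusted p below 0.05 in edgeR 11 of the 13 were higher, and DESeq2 called 4. Pax3, which had too few counts to be tested, went the other way, with 26 counts in the controls together and 14 with BMP-2. Among cartilage markers 4 of 14 tested were called higher (Col9a2, Acan, Col2a1 and Matn4), against 0.811% of all tested genes called higher. Among those listed as bone markers 3 of 8 were called higher (Dlx5, Sp7 and Col10a1). Col10a1, counted here with bone, is a gene of hypertrophic cartilage. At an unadjusted p below 0.05 in edgeR, 8 cartilage markers were higher and 2 lower, and 5 bone markers were higher and 1 lower. At that p, 1100 of all 17006 tested genes were higher and 621 lower. The lower ones were Ucma (log2 change -0.79) and Sox5 (-0.50) of cartilage and Phex (-1.36) of bone. The call of Col9a2 held when any 1 library was left out and that of Acan was lost without control replicate 2. Col2a1 was lost without control replicate 1 or 2, and Matn4 and Col10a1 were lost when any 1 library was left out. Dlx5 was lost without control replicate 1, control replicate 2 or the unnumbered library, and Sp7 without any 1 control. Limma-voom called 2 cartilage and 0 bone markers. Summed over the list, cartilage markers had 368 to 427 CPM in the controls and 498 to 754 CPM with BMP-2, without overlap, and bone markers 76.2 to 311 and 138 to 498 CPM, with overlap. Of the bone markers, Sp7 had 0, 1 and 0 counts in the controls and 73, 164 and 362 in BMP-2 replicate 1, replicate 2 and the unnumbered library. Ibsp had 0 counts in each control and 1, 3 and 1194 in the treated libraries, so nearly all of its counts came from the unnumbered library. Matn1 of cartilage was at 0 in all 6. Fabp4 was the 1 called gene of 6 adipocyte markers. Its call held without control replicate 3 or BMP-2 replicate 2, was lost without each of the other 4 libraries, and was not made by limma-voom. The summed level of the 6 was 302 to 318 CPM in the controls and 328 to 391 CPM with BMP-2. The part of these cell types in the values of the proteoglycan genes was not tested. Of 17 fibroblast markers edgeR called 0, DESeq2 3 and limma-voom 0, with 7 higher at an unadjusted p below 0.05 in edgeR; their mean was 0.32, 0.15 and 0.33 with BMP-2 on the log2 scale. Summed over the list, fibroblast markers had 9010.3 to 9788 CPM in the controls and 8065 to 11135 CPM with BMP-2, which overlapped. Endothelial, leukocyte, epithelial and smooth muscle or pericyte markers gave 0 calls in edgeR. At an unadjusted p below 0.05 in edgeR, 0 endothelial, 1 leukocyte, 0 epithelial and 1 smooth muscle or pericyte marker were found, and DESeq2 called 0, 0, 0 and 1 and limma-voom 0 of each. Salivary epithelial markers also gave 0 calls in edgeR and limma-voom, with 5 of 7 lower at an unadjusted p below 0.05, and DESeq2 called 2 lower.

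The order of the treated libraries by muscle transcript was shared in part by some of the 10 genes and not by others. BMP-2 replicate 2 had the least muscle transcript, 196 CPM, and the highest Aspn, Omd, Fmod and Prelp of the 3, while Ogn was highest in BMP-2 replicate 1. Bgn had the muscle order, highest in the unnumbered library and lowest in BMP-2 replicate 2, but BMP-2 replicates 1 and 2 were close, at 766 and 760 CPM. Dcn, Lum and Kera were also lowest in BMP-2 replicate 2. Control replicate 3, with 101 CPM of muscle transcript, had neither the highest nor the lowest Aspn or Ogn of the controls. These orders rest on single libraries, and the part of muscle in the values of the 10 genes was not tested. With the muscle score as a covariate the log2 change was 2.66 (SE 0.298) for Aspn, 2.25 (SE 0.418) for Ogn and 3.75 (SE 0.821) for Omd, and 0 genes of any kind were called. The score is the mean log2 level of the tested muscle markers relative to the control mean. It was -1.36 to 2.44 in the controls and 3.62 to 5.53 with BMP-2, without overlap. Muscle transcript and BMP-2 treatment therefore cannot be told apart by this fit. Fmod moved from 0.91 to 2.02 (SE 0.576) in that fit and Prelp from 0.18 to 0.57 (SE 0.317).

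**Figure D5:**
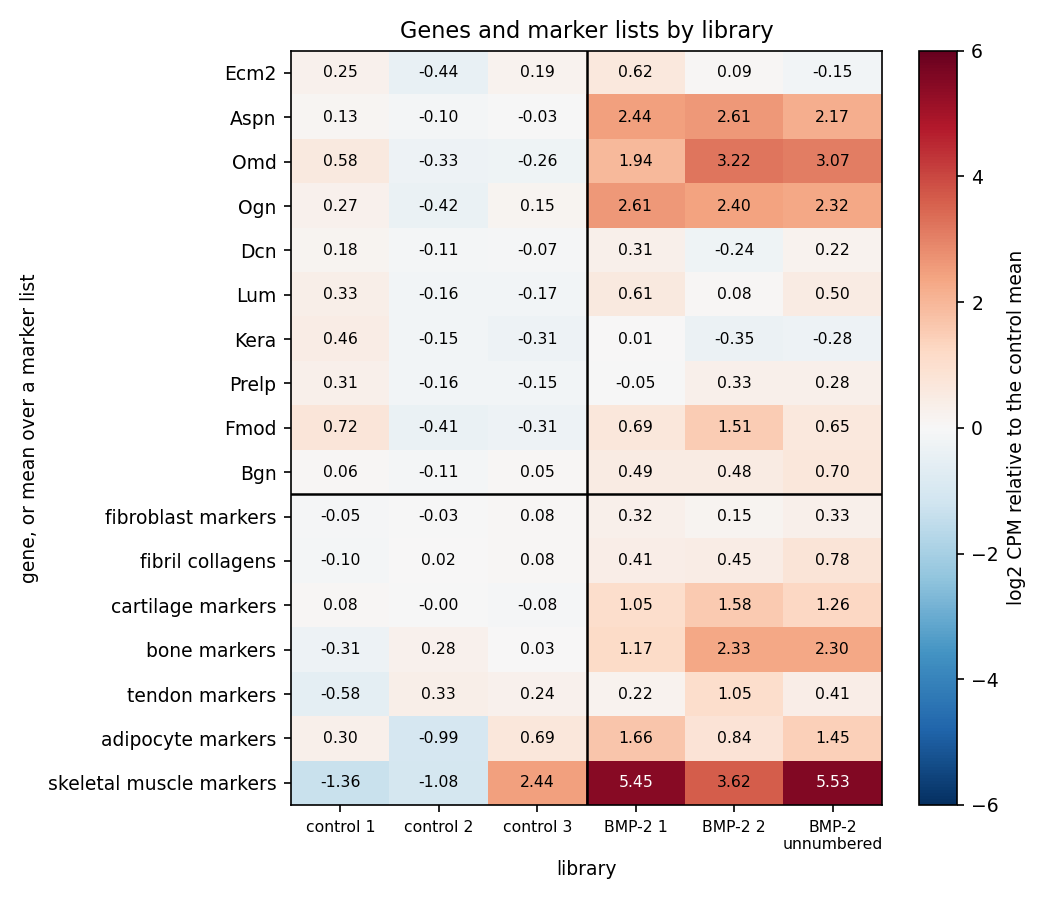
Log2 CPM of each gene, and mean log2 CPM of each marker list, relative to the control mean, in the 6 libraries (red higher, blue lower). Muscle markers are at 2.44 in control 3 and at 3.62 to 5.53 with BMP-2. Aspn is between -0.10 and 0.13 in the controls and between 2.17 and 2.61 with BMP-2.

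The profiles of the 10 genes over the 6 libraries were compared with those of 13640 genes of at least 2 CPM, by the root mean square difference of log2 levels relative to the control mean. Ogn was the nearest gene to Aspn and Aspn the nearest to Ogn, at 0.20 log2 units. Next came Wnt5a, a Wnt ligand gene, and Gata2, a transcription factor gene, for Aspn (both at 0.27), and Bmp5, a BMP ligand gene (0.23), and Gata2 (0.26) for Ogn. Omd was closest to Tmem178 (0.21), Clec11a, which encodes a secreted bone growth factor (0.25), and the homeobox gene Dlx2 (0.27), with Aspn at place 11. The measure includes the difference between the groups, so genes with a like difference are near by construction. Bgn was closest to Perp, Col11a1 and Rab31 (0.06 to 0.08), and Fmod to Rasl11a (0.13), Thbd (0.26) and Lst1 (0.29). Genes with small differences had many near profiles: Kera was closest to the ribosomal protein genes Rpl28, Rpl6l and Rpl14, Dcn to Gm10250, Svbp and Tyms, Lum to Gm5617, Zcwpw1 and Trim13, Prelp to Slc22a18, Eng and Tpgs1, and Ecm2 to H3f3a-ps1, Gm14414 and Snrpe, all within 0.12. On this measure Dcn, the nearest of the 10 genes to Ecm2, stood at place 1345 for it.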

How the data were processed

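The deposited table gives read counts, not normalized, and a length for each gene model. The submitters' processing notes name cutadapt 2.9, HISAT2 2.2.0, featureCounts and the build GRCm39; per the labels' protocols, libraries were poly(A)-selected and directional. Whether counting used strand is not given in those sources. Libraries of a group differed beyond counting noise (chi-square over its degrees of freedom: 12.7 to 38.2).

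All genes were fitted with edgeR 4.0.16 in R 4.3.3 (quasi-likelihood test, robust, TMM factors, default filter; Benjamini-Hochberg adjustment over 17006 genes, threshold 0.05; 4 residual degrees of freedom). CPM values use TMM factors, log2 levels a prior count of 2, and n = 3 means 3 libraries; with 3 against 3, an exact two-sided permutation p cannot go below 0.1. Unnamed gene models, 0.296 to 0.366% of counts, were kept. DESeq2 1.42.0 and limma-voom (limma 3.58.1), other scalings, filters, left-out libraries, a replicate block and a muscle covariate were alternatives. On simulated counts for this comparison (16729 genes tested), 67% of 2-fold and 89% of 4-fold changes were recovered, with 13 false calls.

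The genes, lists and tests were chosen with earlier results of these data known. Named are the 10 genes, the other family genes, up to 4 called genes of each list or its 2 most abundant, called neighbours or the 2 nearest, and the 3 nearest profiles. Of the listed marker symbols, 1 was not found in the table and was not used here. Protein sequences were not used here. Col3a1, Col1a2, Col11a2, Col24a1, Susd3, Mybph, Tgfb1, Tgfb3, Ibsp, Matn1, Tnmd, Pax3, Ucma, Sox5 and Phex were named outside this rule, after their values were seen.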

Additional observations from a re-analysis of the deposited data

How the results depend on the processing

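Of 146 recomputed gene counts (9 groups of genes under the alternatives), 93 stayed within 1.5 times of the reported ones. A count of 0 in both fits was taken as within, which was the case for many of the 93. A change from 3 to 2 called members was also within. DESeq2 called 672 genes in place of 155, with 1 other family gene, 8 other core proteins, 4 fibril collagens, 1 signalling partner and 6 neighbours. Testing every gene with at least 1 count called 552, with 1, 8, 2, 1 and 6 in the same groups and 2 glycosaminoglycan synthesis genes. Limma-voom called 78 genes, 2 of the 10 members and 0 other core proteins, 0 glycosaminoglycan synthesis genes and 0 neighbours. With the muscle score as a covariate 0 genes were called, with 0 of the 10 members, 0 other core proteins, 0 glycosaminoglycan synthesis genes, 0 fibril collagens and 0 neighbours. In the main fit, 0 neighbours within 100 kb were called. Leaving out each library in turn gave 20 to 151 genes, 2 to 3 of the 10, 0 to 2 other core proteins, 0 to 0 glycosaminoglycan synthesis genes, 0 to 2 fibril collagens and 0 to 2 neighbours. Beyond the smaller number of libraries in some of these fits, the causes were not tested.

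The replicate block on the 4 libraries with shared numbers called 540 genes, 4 other core proteins, 2 fibril collagens, 1 tendon marker and 5 neighbours, and the same 4 libraries without pairing 42 genes, 0 other core proteins, 0 glycosaminoglycan synthesis genes and 0 neighbours. Whether same-numbered libraries shared more than a number is not given in the labels. Their deviations from the group means correlated over genes at 0.428 for replicate 1 and 0.137 for replicate 2. All other pairs of a control and a treated library ran from -0.342 to 0.222.

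The log2 change of Aspn ranged from 2.32 to 2.66 over 16 alternatives, that of Ogn from 2.25 to 2.59 and that of Omd from 2.46 to 3.75. Aspn and Ogn were past the threshold in 15 of the 16, the muscle covariate being the exception, Omd in 7, Bgn in 2 and the other 6 in 0. Kera turned positive with the muscle covariate (0.24) and without control replicate 1 (0.03), Ecm2 negative with the covariate (-0.11) and without BMP-2 replicate 1 (-0.06), and Dcn negative with the covariate (-0.02). Counts below about 50 a library, as for Omd in the controls, Epyc and B3gnt7, limit the precision of their folds.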
